A study of Mus musculus with 2 samples.

Results

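The 10 genes described here encode enzymes that lengthen, desaturate or activate the long-chain fatty acids of photoreceptor membranes: the elongases Elovl1, Elovl2, Elovl4, Elovl5 and Elovl6, the desaturases Fads1, Fads2, Scd1 and Scd2, and the acyl-CoA synthetase Acsl6. They were chosen by function, and their probes were the non-control probes whose RefSeq transcript belonged to one of them, which gave 13 of the 55681 distinct probes on the array and 10 of the 21367 genes that could be named. The samples were retinas of mice at postnatal day 12, dissected by hand: 1 total RNA sample from wild type retina and 1 from retina labelled Samd7 KO, a knockout of the sterile alpha motif gene Samd7. Each was labelled with the dye Cy3 and hybridised to 1 Agilent 1-colour array, a glass slide of short DNA probes whose brightness reports transcript abundance. The sources used here do not give the strain, the sex, the number of animals pooled or the deleted part of Samd7.

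With 1 array a group there was no replicate and no test, so variation between animals is unknown and every difference compares these 2 arrays. Signals are log2 processed brightness relative to the 75th percentile of the same array, and a difference is the value on the knockout-labelled array minus that on the wild-type array. The error given with a difference is technical: the SD of the difference between spots of one repeated probe at a like signal, 0.05 at log2 signals above 0, 0.09 from -2 to 0, 0.19 from -4 to -2 and 0.52 below -4. It covers neither labelling nor animals. In whole retina, fewer cells of a type and less RNA per cell cannot be told apart.

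Samd7 itself was higher, not lower, where the label says knockout. Its 1 named probe stood at 4.68 on the wild-type array and at 6.47 on the knockout-labelled array, a difference of 1.78. Whether this goes against the label cannot be told. A probe beyond the deletion would check nothing, and the position of this one is not known here. The arrays are therefore named by their labels, and each direction below rests on them. Rod markers were all above background on both arrays, as were cone, bipolar and Müller glia markers, so the tissue bore the defining transcripts of retina.

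Photoreceptor outer segments are stacks of membrane unusually rich in docosahexaenoic acid, a polyunsaturated fatty acid that is taken up from the blood or built from shorter dietary precursors. Building it takes alternating steps of desaturation by Fads enzymes and elongation by Elovl enzymes in the endoplasmic reticulum, followed by a shortening step in peroxisomes, and the free acid must be joined to coenzyme A by a synthetase such as Acsl6 before it enters phospholipids. Elovl4 carries polyunsaturated chains further to the very long forms found in retina, and dominant mutations in its human counterpart cause a Stargardt-like macular dystrophy. Scd enzymes and Elovl6 act on the saturated and monounsaturated chains that fill the other positions of membrane lipids.

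Of the 10 genes, Elovl2, Elovl5 and Elovl6 were higher on the knockout-labelled array by more than 2 technical SD. In the main setting, the other 7 lay within 2 technical SD of 0 by their brightest probe. That is what level means below. Of all 15256 named genes above background on both arrays, 11.0% were higher and 16.4% lower by more than 2 technical SD. The 3 of 10 here were all higher. With 10 genes and no test, this count is not a result about these genes as a group. The upstream sequence of these 3 elongase genes is shown with that of Elovl4, the retinal elongase that was level, so that genes which differed can be set beside one which did not. Each line gives the 250 bases before the outermost annotated start from RefSeq (build GRCm38.p6), 5′ to 3′ on the gene's own strand, with matches to the motifs named below in capitals.
Elovl2, chr13:41220404-41220653, minus strand: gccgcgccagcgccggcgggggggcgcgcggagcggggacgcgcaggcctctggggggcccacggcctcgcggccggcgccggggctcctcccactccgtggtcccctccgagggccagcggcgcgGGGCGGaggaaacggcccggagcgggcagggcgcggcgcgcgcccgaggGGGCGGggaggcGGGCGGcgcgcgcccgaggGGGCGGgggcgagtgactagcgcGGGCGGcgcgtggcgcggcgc
Elovl5, chr9:77917115-77917364, plus strand: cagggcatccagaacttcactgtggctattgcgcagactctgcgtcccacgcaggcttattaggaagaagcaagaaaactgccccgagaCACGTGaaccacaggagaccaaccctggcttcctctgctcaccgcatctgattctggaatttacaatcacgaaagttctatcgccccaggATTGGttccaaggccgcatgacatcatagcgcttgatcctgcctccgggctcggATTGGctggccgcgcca
Elovl6, chr3:129532136-129532385, plus strand: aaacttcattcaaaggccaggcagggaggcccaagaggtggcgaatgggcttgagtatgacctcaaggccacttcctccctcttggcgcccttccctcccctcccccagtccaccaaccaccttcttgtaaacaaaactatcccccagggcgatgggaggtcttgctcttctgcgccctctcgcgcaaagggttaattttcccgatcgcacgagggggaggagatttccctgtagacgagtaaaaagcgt
Elovl4, chr9:83806306-83806555, minus strand: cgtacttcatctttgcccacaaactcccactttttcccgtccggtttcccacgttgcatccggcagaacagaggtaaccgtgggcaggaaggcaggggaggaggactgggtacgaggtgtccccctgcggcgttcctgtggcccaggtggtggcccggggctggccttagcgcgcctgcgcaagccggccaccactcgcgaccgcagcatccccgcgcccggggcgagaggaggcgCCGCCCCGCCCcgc

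These 4 windows had little in common. That of Elovl2 held 87.2% G and C, a share reached by only 0.043% of the 32851 promoters in the table, against 69.6% for Elovl4, 56.4% for Elovl6, 55.6% for Elovl5 and a median of 52.4% over all promoters. On both strands, the letters searched were TAATCC, a core bound by the photoreceptor factor CRX, CCAAT, the GC box GGGCGG, the E-box CACGTG and TCACNCCAC, a form of the sterol regulatory element. Elovl2 had 5 GC boxes and Elovl4 had 2 that overlapped by 1 base, while 32.7% of all promoters held at least 1. The share of promoters with as many as 5 was not counted. The window of the other annotated Elovl2 start, with 79.6% G and C, held none of the 5 motifs. Elovl5 had 2 CCAAT boxes, at 71 and 17 bases before the start, and 1 E-box; CCAAT occurred in 33.8% and the E-box in 6.02% of all promoters. None of the 5 motifs was found in the window of Elovl6. TAATCC and the sterol element, present in 6.25% and 1.05% of all promoters, were in none of the 4 windows, and a window without a match says only that these letters are not in it. Promoters were found in the table for 7 of the 10 genes.

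**Figure D1:**
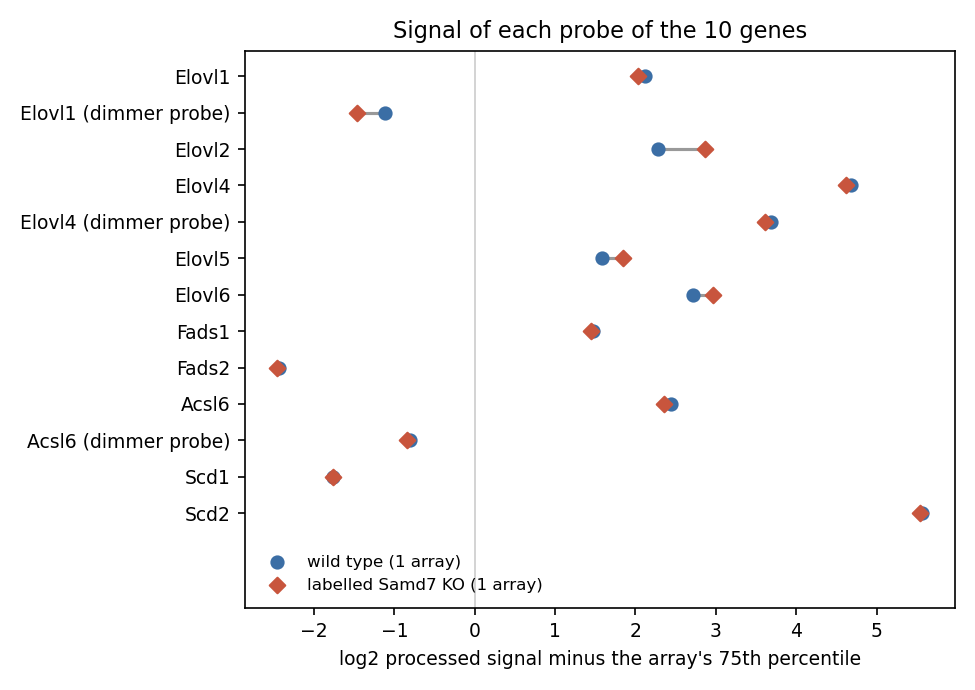
Log2 processed signal relative to the 75th percentile of its array (horizontal axis) for the 13 probes of the 10 genes, with circles for the 1 wild-type array and diamonds for the 1 knockout-labelled array. The pairs of Elovl2, Elovl5 and Elovl6 open to the right (Elovl2 from 2.28 to 2.86) and that of the dimmer Elovl1 probe to the left (-1.12 to -1.46), while most others nearly coincide; brightness compares the arrays for one probe, not one probe with another.

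Elovl2 differed the most among the 10. It extends polyunsaturated chains toward the precursors of docosahexaenoic acid. The processed signal of its probe A_55_P2062737 was 2792 on the wild-type array against 4018 on the knockout-labelled array, and the scaled log2 signal was 2.28 and 2.86. The difference of 0.58 ± 0.05 (technical SD, 1 array a group) is 1.49-fold, just under 1.5-fold. Among 15256 named genes above background on both arrays, 334 had a higher difference than Elovl2, and among the 8728 of these with a mean log2 signal of 0 or more, 1.79% were at or above it.

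Elovl5 and Elovl6 were higher by a smaller and nearly equal amount. Elovl5 elongates polyunsaturated chains at an earlier stage than Elovl2, and its processed signal was 1724 on the wild-type array against 1985 on the knockout-labelled one. The scaled difference of Elovl5 was 0.26 ± 0.05, or 1.19-fold. Elovl6, which extends palmitate to stearate, had processed signals of 3783 and 4312, in the same order, and a difference of 0.24 ± 0.05, or 1.18-fold. Of the genes with a mean log2 signal of 0 or more, 4.58% were at or above Elovl5 and 4.98% at or above Elovl6. All 3 higher elongases rest on 1 probe and 1 spot each.

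Elovl4 was level in both of its probes. The brighter probe had processed signals of 14762 on the wild-type array and 13623 on the knockout-labelled array, a scaled difference of -0.06 ± 0.05, and the other had 7383 and 6745, a difference of -0.08 ± 0.05. These probes differed by 0.01, less than the spot error. The difference of Elovl2 exceeded that of Elovl4 by 0.64 ± 0.07, so that the Elovl2 to Elovl4 signal ratio was 1.56-fold higher on the knockout-labelled array; a ratio within an array shows unequal change only.

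The 2 probes of Elovl1 did not give the same value. Elovl1 makes saturated and monounsaturated very long chains, the kind used in sphingolipids. Its brighter probe had processed signals of 2493 and 2261, wild type first, and a scaled difference of -0.09 ± 0.05. The dimmer probe, for the same transcript, had 264 and 201, a difference of -0.34 ± 0.09. The gap of 0.25 between them is larger than the spot error; the median gap was 0.10 over the 4131 genes for which more than 1 probe was measured on both arrays, and 18.2% of those genes had a gap as wide. Both probes put Elovl1 on the lower side, in the opposite direction to Elovl2, Elovl5 and Elovl6, but by an amount that depends on the probe.

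**Figure D2:**
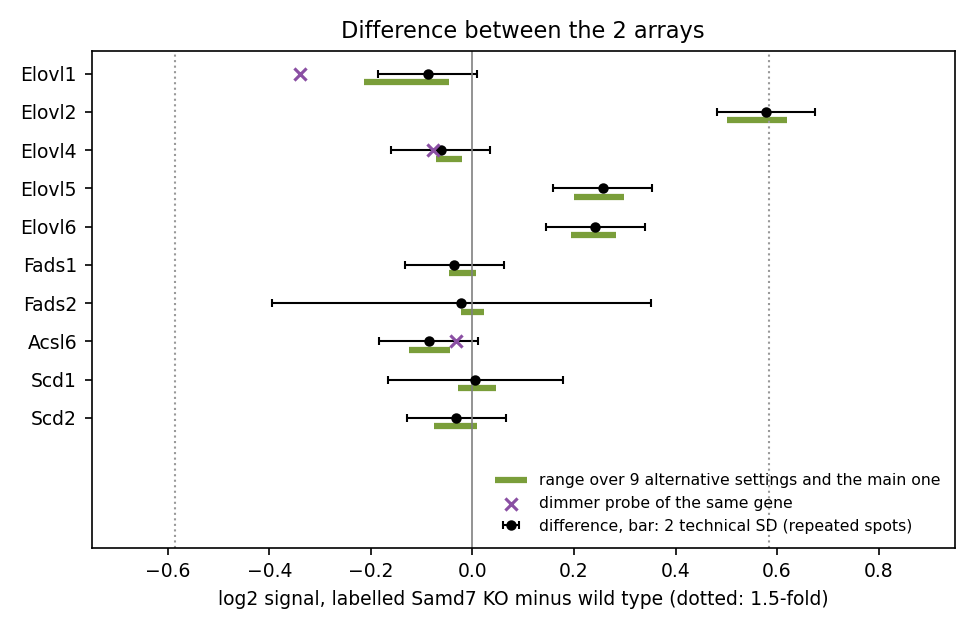
Log2 difference between the knockout-labelled and the wild-type array for each of the 10 genes (points), with bars of 2 technical SD from repeated spots, crosses for the dimmer probe of the same gene and thick lines for the range over the alternative settings. Elovl2 (0.58), Elovl5 (0.26) and Elovl6 (0.24) lie clear of 0, and Elovl2 alone reaches the dotted line of 1.5-fold under some settings.

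The desaturases were level. Fads2, which takes the first desaturation step of the essential fatty acids, was dim, with processed signals of 106 on the wild-type array against 101 on the knockout-labelled array, with median spot brightness 3.56 and 4.17 times the local background. Its difference was -0.02 ± 0.19, the widest technical error of the 10. Fads1, which acts on the chain after the first elongation, had processed signals of 1598 and 1503 and a difference of -0.04 ± 0.05. The neighbouring gene Fads3, the remaining member of this cluster, was at 0.06 ± 0.05.

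Scd1 and Scd2 place the double bond in stearate and palmitate. Scd2 gave processed signals of 27298 on the wild-type array and 25733 on the knockout-labelled array, a difference of -0.03 ± 0.05. Scd1 had 169 and 163, a difference of 0.006 ± 0.09. Their differences lay 0.04 ± 0.10 apart. In the same gene cluster, Scd3 was at 0.03 ± 0.05, and Scd4 was above background on the knockout-labelled array only, at least 1.60-fold higher there (1.08-fold after normexp background correction, which shrinks dim differences). This bound of 0.67 on the log2 scale lies within 2 technical SD of 0, the SD being 0.52 at so dim a signal. The Scd genes are close relatives, and whether their probes share signal was not tested.

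Acsl6, the synthetase with a preference for docosahexaenoic acid in brain and retina, was level. Its brighter probe had processed signals of 3111 on the wild-type array and 2826 on the knockout-labelled array, a difference of -0.09 ± 0.05, and its other probe 329 and 310, a difference of -0.03 ± 0.09. Both values lie within 2 technical SD of 0.

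No member was at least 2-fold higher or lower, beside 1.58% of the 15934 named genes above background on at least 1 array that were higher and 1.37% that were lower. At 1.5-fold the count was again 0, beside 2.96% higher and 3.21% lower, or 6.17% in either direction. With 10 members, a count of 0 is near that background and is not a result about them. The median difference of the 10 was -0.03, and that of all named genes above background was -0.02; without Elovl2 the median of the remaining 9 was also -0.03. The median size of the difference, sign left out, was 0.07 for the members and 0.09 for all genes above background on both arrays. It was 0.07 for the 8728 of these genes with a mean log2 signal of 0 or more, where most members lie. By role, 3 of 5 elongases were above 0, with a median of 0.24, and 1 of 4 desaturases, with a median of -0.03. Over all genes above background on both arrays 41.9% were above 0 and 58.1% below. With so few genes in either role, these counts are not a result about that role. Because Fads1, Fads2, Scd1 and Scd2 change sign with the scaling, no direction is given for them.

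**Figure D3:**
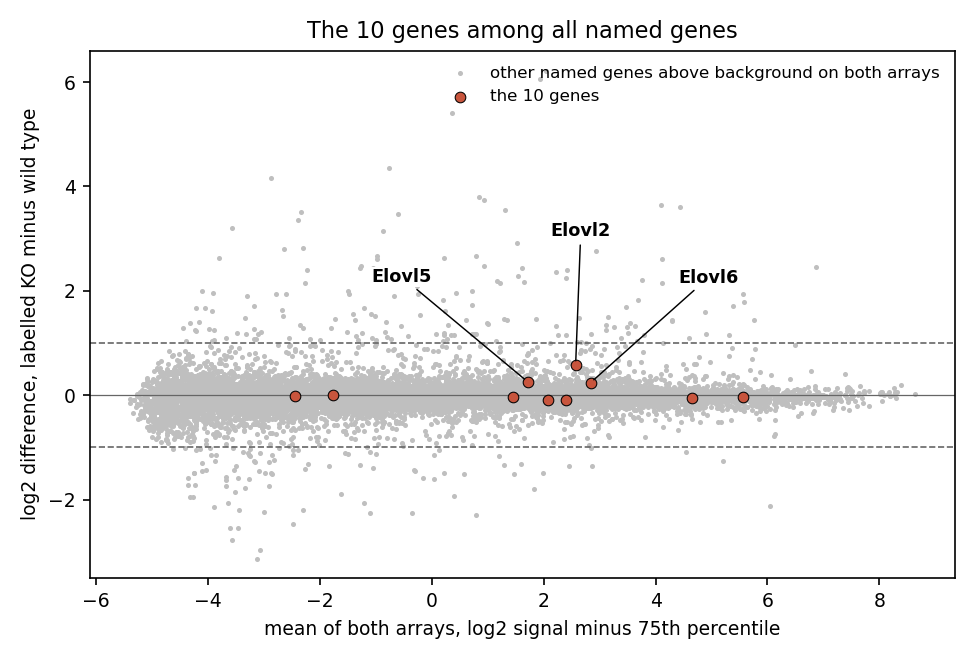
Log2 difference between the arrays (vertical axis) against the mean log2 signal of both arrays (horizontal axis) for the 15256 named genes above background on both arrays (grey) and the 10 genes (red), with dashed lines at 2-fold. All 10 lie inside the lines, and Elovl2, at 0.58, stands highest of them.

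Markers of several cell types also differed between the arrays. The counts below stand beside 58.1% below 0 and 41.9% above 0 over all named genes above background on both arrays. Of 8 rod markers 7 were lower on the knockout-labelled array, from Gnat1 at -2.13 to Rom1 at 0.08. Their mean log2 signal was 6.57 on the wild-type and 6.17 on the other array, and their median difference was -0.16. Of 8 cone markers 5 were higher, up to Cnga3 at 2.91 and down to Opn1mw at -0.17, with means of 2.73 and 3.68. Their median difference was only 0.18. Cnga3, Gngt2 at 2.45 and Opn1sw at 2.09 stood far above the rest, while Gnat2 at 0.04, Pde6h at -0.01 and Pde6c at -0.04 were level. Müller glia markers ran from -0.14 (Car14) to 0.14 (Aqp4), 6 of 8 above 0, with means of 3.60 and 3.64. All 8 of them differed by less than Elovl2, Elovl5 and Elovl6. Bipolar cell markers ran from Isl1 at -0.14 to Gng13 at 1.43. By more than 2 technical SD, 6 rod markers were lower and 0 higher, and 4 cone markers were higher and 1 lower. In the Müller glia and bipolar lists, 1 was higher and 1 lower. Over all named genes above background on both arrays, 16.4% were lower and 11.0% higher by that limit. With 8 genes a list and no test, these counts describe the listed genes only.

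Markers of lens and pigment epithelium differed as well, and those of endothelium, myelin and adipose tissue were also compared. Of 8 lens markers 7 were higher, with means of -2.78 and -0.69, from Bfsp2 at -0.15 to Crybb2 at 2.80. Mip and Lim2 were below background on the wild-type array, so their differences are bounds. The bound of Lim2, 0.66, lies within 2 technical SD of 0, the SD being 0.52. Of the 7 pigment epithelium markers above background, 6 were lower, from Pmel at -0.81 to Best1 at 0.15, with means of 0.63 and 0.21. Lrat was below background on both arrays. By more than 2 technical SD, 5 of the 6 lens markers above background on both arrays were higher and 0 lower. Of the 7 pigment epithelium markers, 6 were lower and 0 higher by that limit. The shares over all named genes were 11.0% higher and 16.4% lower, and 41.9% lay above 0 and 58.1% below. With so few genes and no test, these counts describe the listed genes only. Endothelial markers ran from Tek at -0.29 to Kdr at 0.01. Myelin markers, of interest for Scd2, ran from Mag at -0.26 to Cldn11 at 0.23, with 7 of 8 above background. Of 8 adipose markers only 4 were above background, from Lipe at -1.48 to Retn at 0.30, all dim. The part of any of these cell types in the differences of Elovl2, Elovl5 and Elovl6 was not tested.

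The other enzymes of the elongation cycle differed little, and Hacd3 alone lay past 2 technical SD. Each elongation round uses an elongase, a ketoacyl reductase, a dehydratase and an enoyl reductase. The reductase Hsd17b12 was at -0.09 ± 0.05, the enoyl reductase Tecr at 0.03 ± 0.05, and the dehydratases Hacd1, Hacd2, Hacd3 and Hacd4 between -0.15 ± 0.05 (Hacd3) and 0.16 (Hacd4, -0.01 in its other probe). Elovl7 was at -0.13 ± 0.09, and Elovl3 was not above background on either array. Of the 7 genes of this list above background, 0 were 1.5-fold apart, and the list's median was -0.07. All 7 lay closer to 0 than Elovl2, Elovl5 and Elovl6.

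Among the other acyl-CoA synthetases, Acsl3 was the highest, at 0.46 ± 0.05 or 1.37-fold, with scaled signals of 2.57 on the wild-type and 3.03 on the knockout-labelled array. Acsl3 loads fatty acids for lipid droplets and phospholipids. Slc27a2, a synthetase of very long chains, was lowest at -0.68 ± 0.09 or 1.60-fold lower, and was the 1 gene of the 11 above background in this list to reach 1.5-fold. Normexp brought Slc27a2 to 1.43-fold lower, which ends that count. Acsl1 was at -0.23 ± 0.05 and Acsl4 at -0.15 ± 0.05. The median of this list was -0.02. Among the other desaturases and their electron donors, the median was -0.07 over 8 genes, from Cyb5a at -0.13 to Fads3 among the genes measured on both arrays. Fads6 was above background on the wild-type array only, at least 1.60-fold lower by a bound (difference -0.12 after normexp), again within 2 technical SD of 0 with an SD of 0.52.

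Genes that place or hold docosahexaenoic acid in the membrane differed in both directions. Agpat3, an acyltransferase that forms docosahexaenoic phospholipids, had scaled signals of 4.88 on the wild-type array and 4.43 on the knockout-labelled array, a difference of -0.46 ± 0.05 or 1.37-fold lower. It was the lowest of the 13 phospholipid acylation genes above background, whose median was 0.02 and whose highest was Lclat1 at 0.32. Of these 13, 9 were above 0, beside 41.9% of all named genes above background on both arrays. By more than 2 technical SD, 5 were higher and 1, Agpat3, was lower. Over all named genes above background on both arrays, those shares were 11.0% and 16.4%. With 13 genes and no test, these counts are not a result about the list. Adipor1, a receptor needed for retention of docosahexaenoic acid in photoreceptors, had 3.30 and 2.89, a difference of -0.41 ± 0.05 or 1.33-fold lower. Mfsd2a, the lysophosphatidylcholine transporter that carries this acid into retina, was at -0.18 ± 0.05. In the uptake and retention list, 5 of 7 genes were below 0 with a median of -0.12, among them the dim Cd36 at -0.33 ± 0.52. Of all named genes above background on both arrays, 58.1% were below 0. With 7 genes and no test, this count is not a result about the list. The fatty acid binding protein Fabp7 was 6.09-fold higher (2.61 ± 0.05), from 2.82 to 5.42. Agpat3, Adipor1 and Fabp7 rest on 1 probe each.

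In the peroxisomal and synthetic arms the medians were near 0, with single genes apart. Peroxisomal shortening genes had a median of -0.06 over 11 genes, from Acox3 at -0.22 ± 0.05 to Hsd17b4, the bifunctional enzyme, at 0.17 ± 0.05. The thiolases Acaa1a, at -0.20 ± 0.05, and Acaa1b, at -0.16 ± 0.05, were also lower. Of the 11 genes, 3 were lower and 2 higher by more than 2 technical SD. Over all named genes above background on both arrays, those shares were 16.4% and 11.0%. With 11 genes and no test, these counts are not a result about the list. Fatty acid synthesis genes had a median of 0.01 over 8, from the carboxylase Acaca at -0.11 to malic enzyme Me1 at 0.21 ± 0.05, with 0.18 and 0.27 in its other probes. The difference of Me1 is close in size to that of Elovl6. Sterol synthesis and uptake genes had a median of 0.003 over 16, from Hmgcs1 at -0.13 to Cyp51 at 0.11. In these 3 lists 0 genes were 1.5-fold apart.

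Among 15 lipogenic regulators 4 were higher and 2 lower by more than 2 technical SD. Over all named genes above background on both arrays, 11.0% were higher and 16.4% lower by that limit. With 15 genes and no test, these counts are not a result about the list. Scap, the escort protein of Srebf proteins, was at 0.37 ± 0.05 or 1.29-fold higher, above Elovl5 and Elovl6. The 2 lower were the nuclear receptor Ppard at -0.21 ± 0.05 and Mlx at -0.12 ± 0.05. Srebf1, whose protein switches on Elovl, Fads and Scd genes in liver, was at 0.23 ± 0.09, its relative Srebf2 at 0.11 ± 0.09, and the oxysterol receptor Nr1h3 at 0.27 ± 0.09. Mlxip, a glucose-sensing partner of Mlx, was higher by 1.93 ± 0.09 or 3.81-fold (2.88-fold after normexp); its other probe was not above background. Rxra was lowest at -0.29 ± 0.19, within 2 technical SD of 0 (-0.57 ± 0.19 in its other probe). The median of the 15 regulators was 0.02. Over the 9 lists together, 96 of 101 genes were above background, 3 were at least 1.5-fold higher (Scd4 by a bound, Fabp7 and Mlxip) and 2 lower (Fads6 by a bound and Slc27a2), 5.21% in all, beside 6.17% of all named genes. After normexp only Fabp7 and Mlxip were left, 2 of 96. Normexp also lowered the count over all 15934 named genes, to 266 higher and 168 lower at 1.5-fold.

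**Figure D4:**
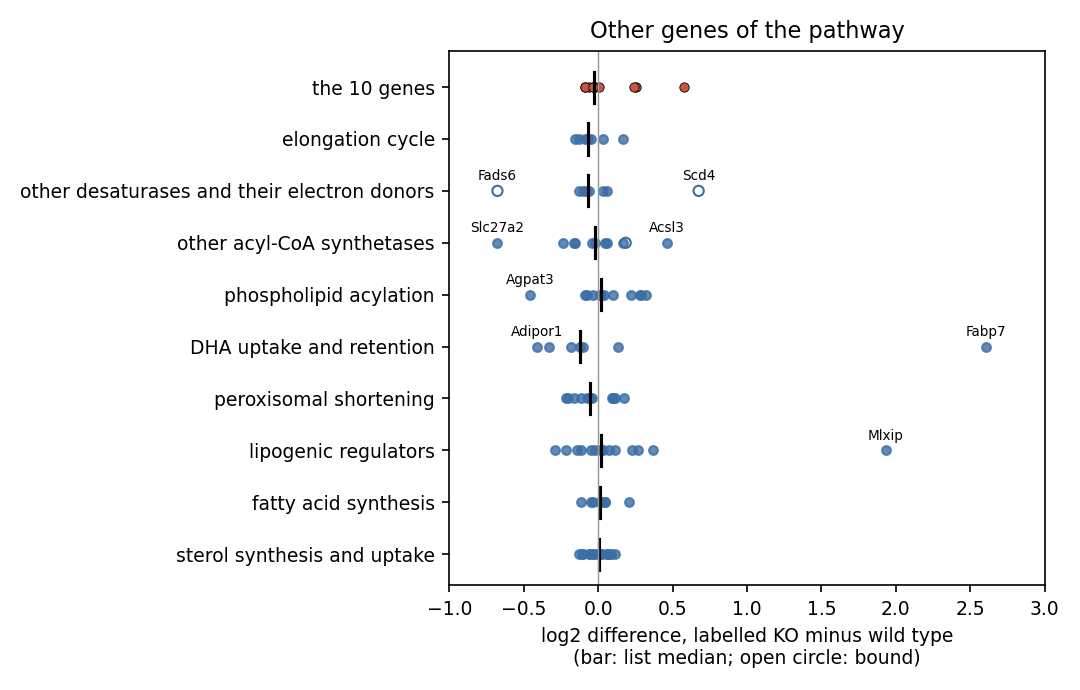
Log2 difference between the arrays (horizontal axis) of the 10 genes (red) and of the genes above background in 9 lists of related function (blue), with black bars at each median and open circles for bounds. The list medians lie between -0.12 and 0.02, with Fabp7 (2.61) and Mlxip (1.93) far to the right.

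The members' neighbours in the genome gave no common pattern. In RefSeq gene order, Elovl2 lies next to Smim13, which was at -0.07, and Nedd9 follows at -0.28. Elovl4 has Sh3bgrl2 at -0.35 on one side and Bckdhb at 0.67 on the other, beyond a gene that was not above background. Elovl5, at 0.26, lies between Gclc at 0.25 and Gcm1 at 0.30 in its brightest probe. The 3 Gcm1 probes above background on both arrays gave 0.13, 0.22 and 0.30, and its remaining probe, above background on the wild-type array only, stood at -3.49 there and at -7.41 on the other, a far larger difference the other way, so the value of Gcm1 is uncertain. Near Acsl6, beyond a gene that was not above background, Fnip1 was at -0.89 while Acsl6 was level.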

How the data were processed

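Intensity values were used as the authors deposited them from Agilent Feature Extraction 11.5.1.1, protocol GE1_1105_Oct12, with statistics of background subtraction and detrending recorded, per the file headers. The authors' value table holds these intensity values times a constant per array (median log2 ratio 1.31 and 1.37), by a rule not given in the sources used here, and served as an alternative. Of 59305 non-control spots, 119 and 163 were left out as outliers, none was saturated, and 60.3% (wild type) and 60.9% were well above background.

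The 75th percentiles subtracted were 574 and 554. Of 55677 probes, 28330 were named by unversioned accession in RefSeq (GRCm38.p6), used for names and gene order; the array design was built on mm9. A gene's brightest probe stood for it. A gene above background on 1 array has a bound: its dim value was raised to the lowest signal called above background there, where it was under that. No test was possible. Named were all 10 genes, each list's highest and lowest gene on both arrays and genes 1.5-fold apart; others are examples chosen for their role. Members and lists were chosen with earlier results of these data known. Counting was tested on simulated data (Python 3.11.15, limma 3.58.1).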

Additional observations from a re-analysis of the deposited data

How the results depend on the processing

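The median difference of the 10 genes, -0.03, changed sign to 0.0053 with median scaling and to 0.0146 relative to reference genes, since most members lie near 0. No member was 2-fold apart under any of 11 alternatives, nor at 4-fold. Elovl2 ranged from 0.50 (normexp on median signals) to 0.62 (relative to reference genes), on both sides of 1.5-fold: 6 of the settings put it at or over 1.5-fold, among them median scaling at 1.53-fold. Elovl5 ranged from 0.20 to 0.30 and Elovl6 from 0.20 to 0.28. Elovl1, at -0.09, was -0.21 with the mean over its probes and -0.101 with normexp. Acsl6, at -0.09, was -0.124 with normexp. These alternative values lie past 2 technical SD of the main setting (SD 0.0487), so Elovl1 and Acsl6 were not level there. Fads1, Fads2, Scd1 and Scd2 changed sign in at least 1 setting. Of 93 recomputed member values 5 moved by over the technical SD, and of 99 recomputed list medians 1 did. The authors' table without rescaling was added after seeing the data. Fads2 and Scd1 are limited by dim signal. No paired analysis was possible because the study holds a single array of either genotype.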
